A study of Mus musculus with 10 samples.

Results

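The constitutive 26S proteasome genes were described across 10 expression arrays of mouse embryonic fibroblasts. Members were all genes whose symbol in the array annotation is Psma, Psmb, Psmc or Psmd followed by a number, without the immune subunits Psmb8, Psmb9 and Psmb10. The rule used no measured value. It found 35 genes with 64 probe sets, of 12393 genes in all. Of the 35 genes, 31 encode subunits of the particle in ordinary cells, 3 (Psmd5, Psmd9 and Psmd10) encode chaperones that help to assemble it and are not part of the mature particle, and Psma8 encodes a testis-specific subunit.

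The samples come from a study of SWI/SNF, a complex that remodels chromatin, and compare cells with and without a subunit of it. There were 3 arrays of wild type cells, 3 of Snf5-/- cells (Snf5 is the core subunit encoded by Smarcb1) and 4 of Brg1-/- cells (Brg1 is the ATPase encoded by Smarca4). All 10 samples were primary fibroblasts of E13.5 embryos on a mixed strain background of C57BL/6 and 129, grown in DMEM with FBS. The wild type cells were treated like the mutants, in that Cre was introduced by a retrovirus in every group and 2.5 ug/ml of puromycin was used to select infected cells. The labels name the genotypes only by these symbols. The labels do not say whether replicates were separate embryos or cultures, so a p-value here speaks only of the array to array spread, and the number of arrays limits the precision. Because the RNA came from whole cultures, fewer cells of a type and less RNA per cell cannot be told apart.

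The proteasome is the protease that degrades most short-lived and damaged proteins of the cytosol and nucleus after they have been tagged with ubiquitin. Its 20S core is a barrel of alpha and beta rings, with the cutting sites inside on the subunits encoded by Psmb5, Psmb6 and Psmb7. A 19S regulatory particle caps the barrel: its base holds a ring of ATPases (Psmc genes) that unfold the substrate, and its lid holds the subunit that removes ubiquitin. In mammalian cells the constitutive genes are known to be induced together when proteasome activity falls, through the transcription factor encoded by Nfe2l1, whereas interferon induces Psmb8, Psmb9 and Psmb10, whose products replace the 3 constitutive cutting subunits.

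Values are given on 2 scales. The deposited intensity is the authors' linear signal of a probe set. The arrays differed in overall brightness, with medians from 145.6 to 233.65, so the tests were run on quantile-normalized log2 intensity, which gives every array the same distribution, and the deposited log2 values are given beside them. The median change of all 8398 genes tested was 0.02 in both mutants after normalization, but in deposited intensity it was -0.27 for Snf5-/- and -0.47 for Brg1-/-. A normalized change is therefore a shift of a gene's place in its array's distribution, set by genes of similar brightness. It can differ from a change against the array median. A gene is written as having risen or fallen where its adjusted p was under 0.05. The genotype labels were borne out: Smarcb1 was lower in Snf5-/- cells by -1.37 ± 0.11 (log2, SE of the fit, limma, adjusted p = 1.98e-05) and Smarca4 was lower in Brg1-/- cells by -2.10 ± 0.14 (adjusted p = 2.25e-06). All 12 fibroblast markers were above the background controls in every array, whereas 3 to 5 of 7 epithelial and 2 of 5 endothelial markers were above them in all arrays of a group. Of 12 macrophage and leukocyte markers, 10 were above them in all arrays of each group. Summed deposited intensity of the fibroblast markers was 121304 to 129962 in wild type, 113526 to 135041 in Snf5-/- and 84352 to 103416 in Brg1-/-.

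Of the 35 members, 34 passed the filter on low intensity, and the probe set that stands for each of these 34 was above background in all 10 arrays. In wild type cells the deposited intensity of these probe sets ran from 372 ± 82.8 (SD, n = 3) for Psmd10 to 8957 ± 1161 for Psmd8. These levels are not compared between genes, because each probe set binds with its own strength. Psma8, the testis-specific alpha subunit, did not pass. Its probe set read 2.8, 27.6 and 3.9 in the wild type arrays, 42.1, 49.5 and 7.1 among the Snf5-/- arrays and 12, 4.5, 7.6 and 22.1 among the Brg1-/- arrays, against background levels between 26.7 and 57.4 in these arrays.

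After normalization most members differed little from wild type in either mutant. A pair of genes, Psmd8 and Psmd5, fell in both mutants and on both scales. In Snf5-/- cells 2 of the 34 members rose after normalization (Psma6 and Psmb4, of which only Psma6 had a positive change on the deposited scale), where 10.6% of all genes tested rose. A further 2 members fell (Psmd8 and Psmd5), where 7.47% of all genes fell, and 30 did not pass the test. Without Brg1-/- replicate 4 the number that fell was 4, and with the mean of a gene's probe sets it was 6. That array enters this comparison through the shared normalization, the filter, the choice of probe sets and the estimate of spread. The median change of the members was -0.05, and 31 of 34 lay within 0.5 of no change on the log2 scale, where 76.6% of all genes did.

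In Brg1-/- cells 8 of the 34 members rose after normalization (Psma4, Psma6, Psmb2, Psmb4, Psmb5, Psmb6, Psmd3 and Psmd9), where 14.9% of all genes rose, yet all of these but Psmd9 had a negative change on the deposited scale. The members that fell were again Psmd8 and Psmd5, 2 of 34, where 12.9% of all genes fell. The members' median change was 0.05, and 31 of 34 lay within 0.5 of no change, where 73.2% of all genes did. Without Brg1-/- replicate 3 the number that rose was 5, namely Psma6, Psmb2, Psmb4, Psmb6 and Psmd9. When each array was instead centred on its median, 2 members rose and 5 fell. Both mutant comparisons share the 3 wild type arrays, so their values are given side by side and are not independent of each other.

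On the deposited scale no member rose in either mutant, where 3.16% of all genes rose in Snf5-/- and 3.43% in Brg1-/-. In Snf5-/- cells 9 members fell, where 16.1% of all genes did: Psma7, Psmb3, Psmc3, Psmc6, Psmd1, Psmd2, Psmd14, Psmd5 and Psmd8. In Brg1-/- cells 24 of 34 fell, where 44.1% of all genes did. The members' medians were -0.39 and -0.55, against -0.27 and -0.47 for all genes. Only Psmd8 and Psmd5 fell on both scales.

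**Figure D1:**
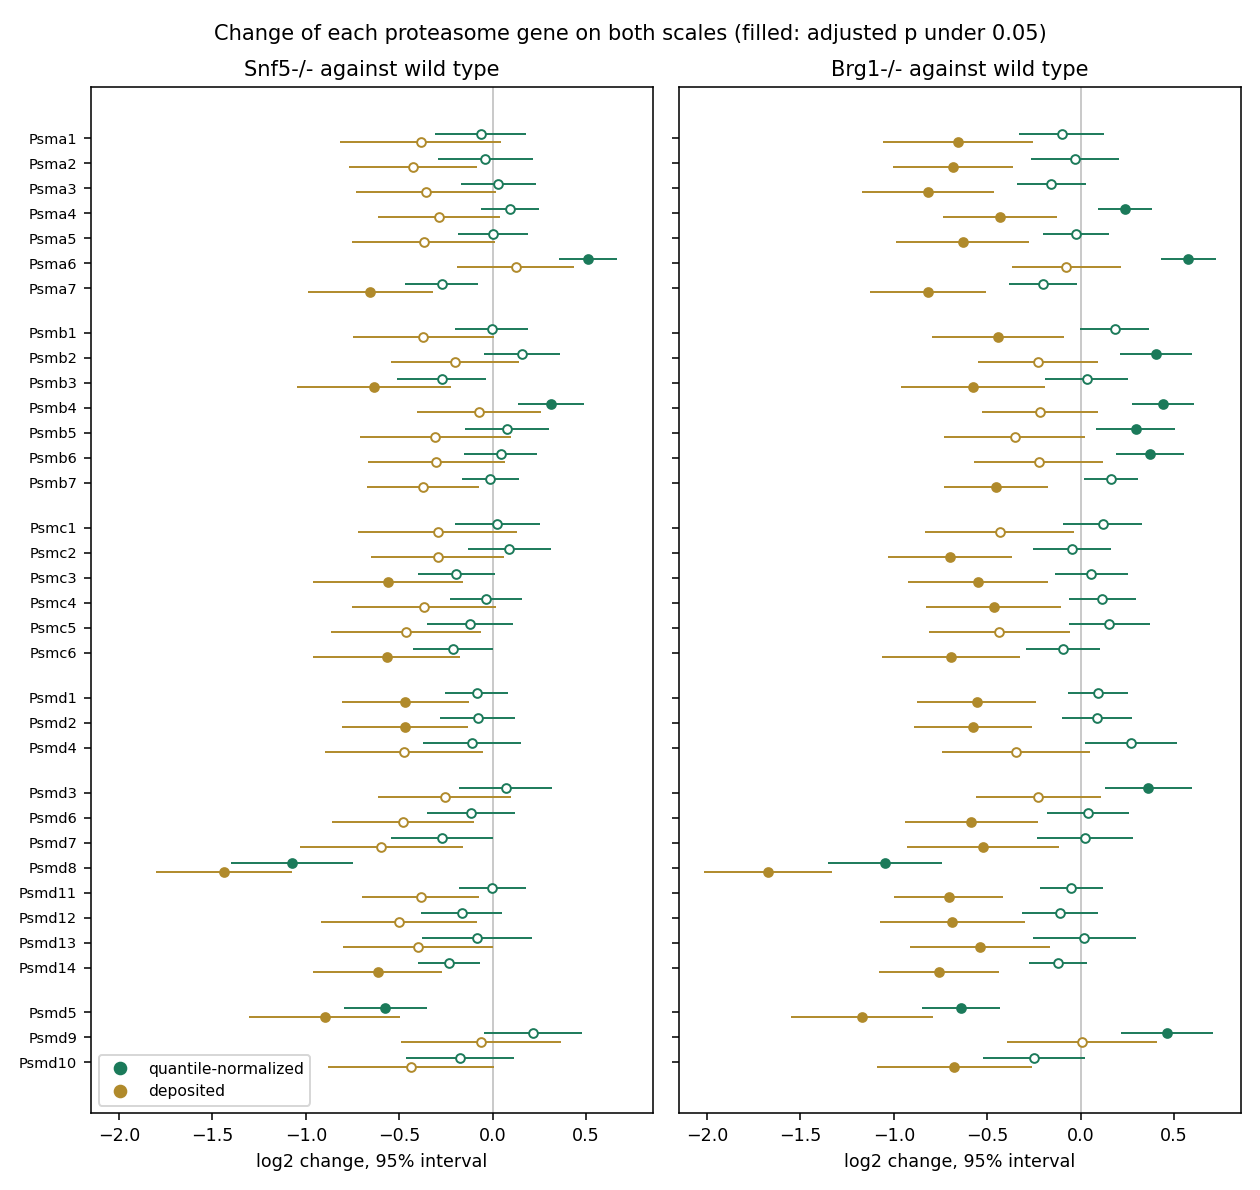
Change of each of the 34 tested proteasome genes (rows, grouped by role) in Snf5-/- cells (left) and Brg1-/- cells (right) against wild type, in log2 units with 95% intervals of the limma fit. Green points are quantile-normalized and ochre points deposited values, and filled points passed an adjusted p of 0.05. Ochre points lie to the left of green points throughout, and only Psmd8 and Psmd5 are filled to the left of 0 on both scales.

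**Figure D2:**
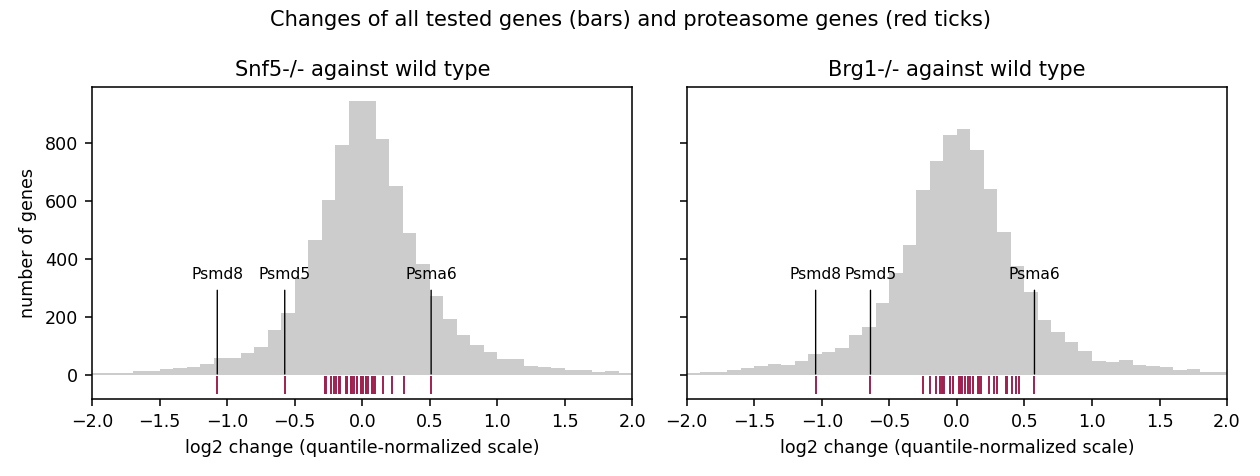
Histogram of the normalized log2 change of all 8398 genes tested (bars, number of genes per 0.1 of log2) with the 34 proteasome genes as red ticks, for Snf5-/- (left) and Brg1-/- (right) against wild type. The axis ends at 2 on either side, which leaves out 96 and 103 genes. The ticks lie close to 0 apart from Psmd8, Psmd5 and Psma6, and the last has a change of -0.08 in Brg1-/- on the deposited scale.

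Psmd8 had the largest change of the members in both mutants. Psmd8 encodes Rpn12, a subunit of the lid that is the last to join during lid assembly in yeast. The gene lies on chromosome 7 (29180673 down to 29174187, minus strand, GRCm38.p6) and has 1 probe set on the array (1423296_at). Its deposited intensity was 10289, 8164 and 8417 in the 3 wild type arrays. The Snf5-/- arrays read 2692, 3858 and 3437, and the Brg1-/- arrays read 2885, 2275, 2839 and 3271. Every mutant array lay below every wild type array, by a wide gap, and the mutants overlapped each other.

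After normalization the change of Psmd8 was -1.07 ± 0.15 in Snf5-/- (adjusted p = 0.00054), to 47.5% of the wild type level, and -1.05 ± 0.14 in Brg1-/- (adjusted p = 0.00023), to 48.4%. The deposited values gave -1.44 (adjusted p = 1.55e-05) and -1.67 (adjusted p = 6.19e-07). Measured within each array against the median of the 34 members, Psmd8 was lower by -1.0 and -1.13. It thus parted from the rest of the proteasome genes by about as much as its normalized change. Of all 8398 genes tested, Psmd8 stood at the 2.51 percentile of change in Snf5-/- and at the 3.66 percentile in Brg1-/-. The difference between the mutants was 0.03 (95% interval -0.28 to 0.33, adjusted p = 0.94).

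Psmd5, the second member that fell in both mutants, encodes S5b, a chaperone that in human and yeast cells holds part of the ATPase ring while the base is put together. It lies on chromosome 2 (34870965 down to 34852087, minus strand) and also has 1 probe set (1423234_at). Its deposited intensity was 2235, 1600 and 1439 in the wild type arrays, 888, 933 and 956 among the Snf5-/- arrays and 768, 737, 857 and 712 among the Brg1-/- arrays. The lowest wild type array was above the highest mutant array. The normalized change was -0.57 ± 0.10 in Snf5-/- (adjusted p = 0.0028) and -0.64 ± 0.10 in Brg1-/- (adjusted p = 0.00052), that is, to 67.2% and 64.2% of wild type. The deposited change was -0.90 (adjusted p = 0.0034) and -1.17 (adjusted p = 7.09e-05).

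**Figure D3:**
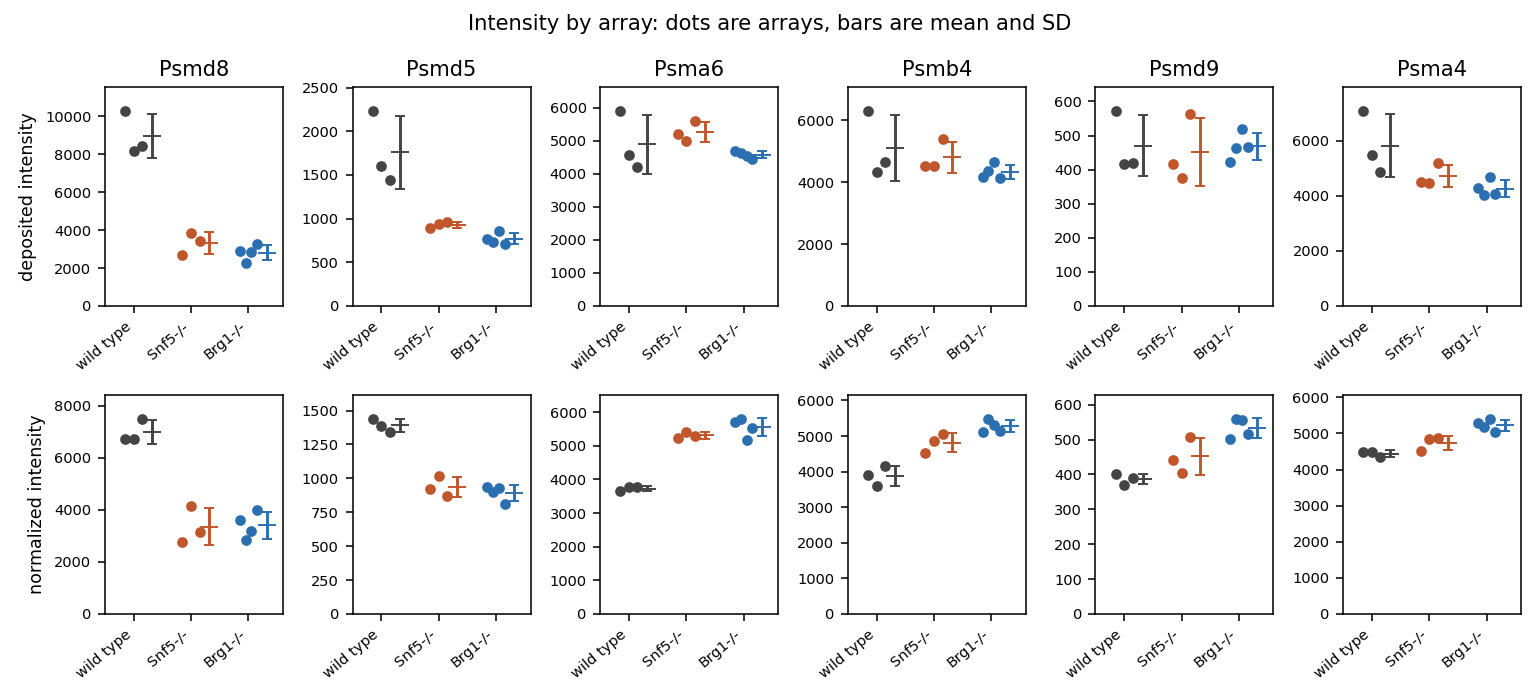
Intensity of 6 proteasome genes in every array (dots), with the mean and SD of each group beside them; the top panels show deposited and the bottom panels quantile-normalized intensity, each axis starting at 0. Psmd8 and Psmd5 are lower in both mutants in the top and bottom panels, whereas Psma6, Psmb4, Psmd9 and Psma4 are higher in the Brg1-/- arrays only in the bottom panels; the deposited change in Brg1-/- is negative for these 4 except Psmd9.

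The bases just before the start of both genes are shown because these were the members that fell together on both scales. They are the 250 bases upstream of the RefSeq start site on GRCm38.p6, read 5′ to 3′ along the gene's own strand, for Psmd8 (chr7:29180674-29180923) and for Psmd5 (chr2:34870963-34871212, which overlaps the outer end of the gene given above by 3 bases, since the start site used for the window lies inside it). Capitals mark the GC box GGGCGG, a site that Sp1 family factors are known to bind, and in Psmd5 also the palindrome CTCGCGAG, which was searched for after it was seen in this sequence.
Psmd8: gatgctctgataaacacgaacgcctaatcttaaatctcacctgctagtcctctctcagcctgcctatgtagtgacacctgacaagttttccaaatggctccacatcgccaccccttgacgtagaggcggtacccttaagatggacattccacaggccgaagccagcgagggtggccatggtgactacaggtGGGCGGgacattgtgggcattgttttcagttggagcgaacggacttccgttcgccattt
Psmd5: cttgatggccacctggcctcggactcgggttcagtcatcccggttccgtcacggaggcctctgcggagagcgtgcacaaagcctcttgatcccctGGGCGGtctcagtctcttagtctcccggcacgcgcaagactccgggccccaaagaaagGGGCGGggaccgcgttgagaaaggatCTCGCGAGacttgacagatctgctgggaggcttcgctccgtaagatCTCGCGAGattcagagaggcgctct
Psmd8 holds 1 GC box, whose first base is at -59 from the start site. Psmd5 holds GC boxes at -155 and -97, another at 16 bases after the start that is not printed, and the palindrome at -71 and -25. The sequences share the GC box and no other motif searched.

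Motifs were searched on both strands in windows of 300 bases, 250 before and 50 after each RefSeq start, and 28 of the 35 members had such a window (30 windows in all, since Psma6 and Psmc2 have 2). Psmb1, Psmb2, Psmb7, Psmc3, Psmd3, Psmd7 and Psma8 had none. The GC box GGGCGG was in 18 of the 30 member windows and in 35.7% of all 32851 windows. The CCAAT box (CCAAT), which NF-Y binds, was in 36.7% and 37.4%, and the TATA box (TATAAA) in 10.0% and 13.6%. The core of the antioxidant response element (TGACNNNGC), to which Nfe2l1 and Nfe2l2 are known to bind with small Maf partners, was in 16.7% and 12.4%. It was found in Psmb5 at -47, Psmb6 at -9, Psmd9 at -31, Psmc6 at -227 and Psmd12 at -247, and not in the windows of Psmd8 and Psmd5. CTCGCGAG was in 3.33% of member windows, which is Psmd5 alone, and in 0.919% of all windows. A match is a description of the letters only.

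The 7 alpha subunits form the outer rings of the core and the gate through which substrates enter. Of these, Psma6 rose in Snf5-/- and Psma4 and Psma6 in Brg1-/- after normalization, where 10.6% and 14.9% of all genes rose. The other 5 (Psma1, Psma2, Psma3, Psma5 and Psma7) changed by between -0.27 and 0.03 in either mutant after normalization and did not pass. The median of the ring was 0.00 in Snf5-/- and -0.03 in Brg1-/-. The deposited medians were -0.37 and -0.66.

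Psma6 rose most of the members after normalization. Its normalized intensity was 3652, 3763 and 3763 in the wild type arrays, 5224, 5412 and 5279 among the Snf5-/- arrays and 5700, 5806, 5181 and 5521 among the Brg1-/- arrays. No mutant array overlapped the wild type arrays. The change was 0.51 ± 0.07 in Snf5-/- (adjusted p = 0.00060) and 0.57 ± 0.07 in Brg1-/- (adjusted p = 9.82e-05), but in deposited intensity it was 0.12 (adjusted p = 0.58) and -0.08 (adjusted p = 0.65), with wild type arrays at 5911, 4572 and 4193 overlapping both mutants. The representative probe set (1437144_x_at) is of a kind that can bind related transcripts. A separate probe set (1416506_at) gave 0.31 ± 0.10 in Snf5-/- (adjusted p = 0.061) and 0.29 ± 0.10 in Brg1-/- (adjusted p = 0.045), smaller changes in the same direction. With the mean of all 4 probe sets of the gene, 1 of which was at or below background in all 10 arrays, the change was -0.09 in Snf5-/- (adjusted p = 0.84) and 0.43 in Brg1-/- (adjusted p = 0.22).

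Psma4 passed the threshold in opposite directions on the 2 scales in Brg1-/-. Its normalized intensity was 4492, 4492 and 4336 in wild type and 5279, 5170, 5412 and 5042 in Brg1-/-, a change of 0.23 ± 0.07 (adjusted p = 0.020). The deposited intensity was 7091, 5485 and 4868 in wild type and 4275, 4030, 4702 and 4058 in Brg1-/-, a change of -0.43 ± 0.15 (adjusted p = 0.022). The Brg1-/- arrays were all above wild type on the first scale and all below on the second. The normalized call was lost without wild type replicate 1, 2 or 3 or Brg1-/- replicate 3 (adjusted p up to 0.085). In Snf5-/- the normalized arrays read 4516, 4834 and 4877 and the change was 0.09 (adjusted p = 0.39). These data do not settle the direction of Psma4.

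The 7 beta subunits include those that carry the cutting sites. In Brg1-/- cells 4 of 7 rose after normalization (Psmb2, Psmb4, Psmb5 and Psmb6), where 14.9% of all genes rose. All 7 had a change above 0 and the median was 0.29, where 4318 of all 8398 genes were above 0. In contrast, all 7 had a change below 0 on the deposited scale, with a median of -0.35, where 7099 of all genes were below 0. On that scale 3 of 7 fell (Psmb1, Psmb3 and Psmb7), where 44.1% of all genes did. In Snf5-/- cells only Psmb4 rose after normalization, where 10.6% of all genes rose, and the median was 0.04. Psmb3 read -0.27 in Snf5-/- and 0.03 in Brg1-/- after normalization, and passed in neither.

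Psmb5 encodes the subunit with chymotrypsin-like activity, the target of the drug bortezomib. Its normalized intensity was 3933, 3325 and 3257 in the wild type arrays, 3517, 3432 and 4119 among the Snf5-/- arrays and 4571, 3989, 4128 and 4471 among the Brg1-/- arrays. The Brg1-/- arrays were all above wild type, the lowest by little, and the Snf5-/- arrays overlapped it. The change was 0.07 ± 0.10 in Snf5-/- (adjusted p = 0.67) and 0.29 ± 0.10 in Brg1-/- (adjusted p = 0.039), against -0.31 and -0.35 on the deposited scale, neither past the test. The Brg1-/- call was lost when any of 5 arrays was left out (wild type replicate 2 or 3, or Brg1-/- replicate 1, 3 or 4), with adjusted p up to 0.154.

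Psmb6 encodes the subunit with caspase-like activity. Its normalized intensity was 2024, 1931 and 2135 in the wild type arrays, 2085, 2156 and 2030 among the Snf5-/- arrays and 2701, 2429, 2523 and 2861 among the Brg1-/- arrays. The Brg1-/- arrays stood above all the others, and wild type and Snf5-/- overlapped. The change was 0.04 ± 0.09 in Snf5-/- (adjusted p = 0.79) and 0.37 ± 0.08 in Brg1-/- (adjusted p = 0.0067), against a deposited change of -0.22 (adjusted p = 0.26) in the latter.

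Psmb7 encodes the subunit with trypsin-like activity. Its normalized intensity was 7103, 6550 and 6984 in the wild type arrays, 6650, 7043 and 6753 among the Snf5-/- arrays and 7840, 7410, 8127 and 7430 among the Brg1-/- arrays. Here too the Brg1-/- arrays were above wild type without overlap, but the change of 0.16 ± 0.07 missed the threshold (adjusted p = 0.086), and the deposited values fell by 0.45 on the log2 scale (adjusted p = 0.010). The change in Snf5-/- was -0.01 ± 0.07 (adjusted p = 0.92). None of the 3 cutting subunits therefore passed in Snf5-/- after normalization.

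Psmb4, a beta subunit without a cutting site, had normalized intensity of 3894, 3606 and 4167 in the wild type arrays, 4522, 4871 and 5055 among the Snf5-/- arrays and 5120, 5490, 5317 and 5154 among the Brg1-/- arrays. All mutant arrays were above wild type. The change was 0.31 ± 0.08 in Snf5-/- (adjusted p = 0.021) and 0.44 ± 0.08 in Brg1-/- (adjusted p = 0.0013), against deposited changes of -0.07 (adjusted p = 0.77) and -0.22 (adjusted p = 0.22). Leaving out wild type replicate 1 or 2 or Snf5-/- replicate 3 ended the Snf5-/- call, with adjusted p of 0.053, 0.095 and 0.056. A second probe set of Psmb4 (1438984_x_at) changed by only 0.03 in either mutant and passed in neither (adjusted p = 0.89 and 0.90).

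**Figure D4:**
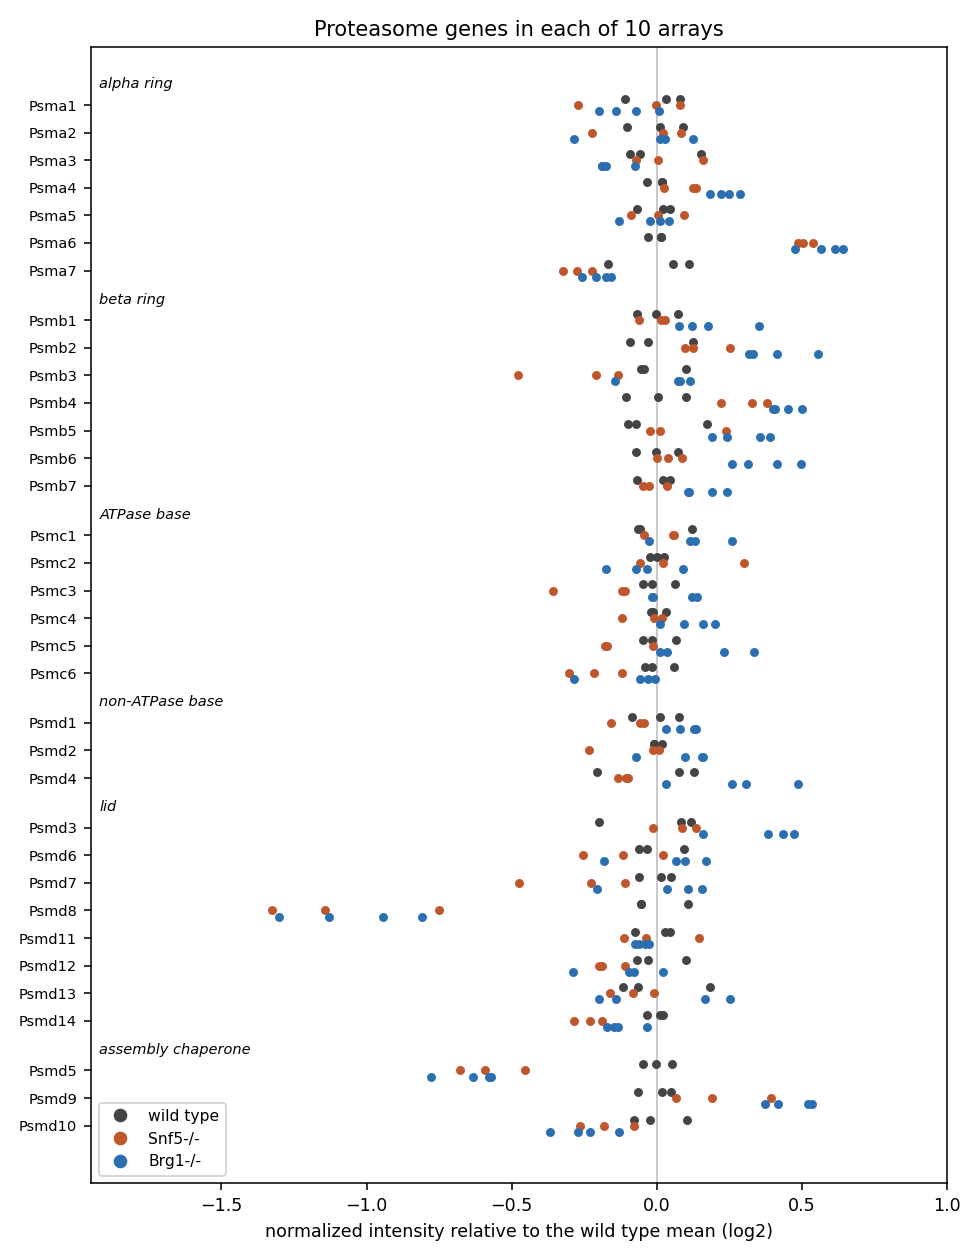
Normalized intensity of each tested proteasome gene in each of the 10 arrays, as the log2 difference from the wild type mean of that gene; dark, orange and blue dots are wild type, Snf5-/- and Brg1-/- arrays, and genes are grouped by role. The Psmd8 and Psmd5 dots of both mutants lie far to the left of wild type, those of Psma6 to the right, though not in the deposited intensity of Brg1-/-, and most other genes overlap.

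The ATPases of the base (Psmc1 to Psmc6) form the ring that unfolds substrates and drives them into the core. By its representative probe set, no ATPase gene passed the test after normalization in either mutant. A second probe set of Psmc4 fell in Snf5-/- and is described below. The representative changes ran from -0.21 to 0.09 in Snf5-/-, with a median of -0.08. In Brg1-/- they ran from -0.09 to 0.15, with a median of 0.09. The deposited values of Psmc3 and Psmc6 fell in Snf5-/-, where 16.1% of all genes fell. Those of Psmc2, Psmc3, Psmc4 and Psmc6 fell in Brg1-/-, where 44.1% of all genes fell. The other base subunits are the large scaffolds encoded by Psmd1 and Psmd2, to which ubiquitin receptors and shuttles dock, and the ubiquitin receptor encoded by Psmd4. None of these 3 genes passed after normalization, with changes from -0.11 to -0.08 in Snf5-/- and from 0.09 to 0.27 in Brg1-/-.

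Of the 8 lid genes, only Psmd8 passed in Snf5-/- by the representative probe set after normalization, where 7.47% of all genes fell and 10.6% rose. Psmd8 also fell in Brg1-/-, where 12.9% of all genes fell. Psmd14 encodes the enzyme that removes ubiquitin from the substrate. It read -0.23 ± 0.08 in Snf5-/- (adjusted p = 0.051) and -0.12 ± 0.07 in Brg1-/- (adjusted p = 0.23) after normalization, and fell in both mutants on the deposited scale. In Brg1-/- Psmd3, a lid subunit that contacts the base, rose by 0.36 ± 0.11 after normalization (adjusted p = 0.025), where 14.9% of all genes rose. Its deposited change was -0.23 (adjusted p = 0.24). Leaving out wild type replicate 1 or Brg1-/- replicate 2, 3 or 4 ended the call of the rise, with adjusted p of 0.12, 0.065, 0.058 and 0.053. By their representative probe sets, the scaffold subunits encoded by Psmd6, Psmd7, Psmd11, Psmd12 and Psmd13 did not pass in either mutant. Their normalized changes lay between -0.27 and 0.04. A second probe set of Psmd6 fell in Snf5-/- and is described below.

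The 3 assembly chaperones did not move together. Psmd5 fell in both mutants, where 7.47% (Snf5-/-) and 12.9% (Brg1-/-) of all genes fell after normalization. Psmd9 (p27) rose in Brg1-/- after normalization, where 14.9% of all genes rose. Psmd10 (gankyrin) passed in neither mutant, with changes of -0.17 ± 0.13 and -0.25 ± 0.12. Normalized intensity of Psmd9 was 400, 370 and 391 in the wild type arrays, 441, 405 and 508 among the Snf5-/- arrays and 501, 560, 555 and 516 among the Brg1-/- arrays. All mutant arrays lay above wild type, the Snf5-/- arrays by less. The change was 0.22 ± 0.12 in Snf5-/- (adjusted p = 0.24) and 0.46 ± 0.11 in Brg1-/- (adjusted p = 0.0094). In deposited intensity Psmd9 changed by 0.01 in Brg1-/- (adjusted p = 0.98), where the median change of all genes tested was -0.47. Measured within each array against the median of the tested members, Psmd9 was higher by 0.55 in Brg1-/-. On that measure every Brg1-/- array lay above every wild type array. The call of the rise held in 19 of 21 alternatives and was weaker in 2, the deposited scale among them.

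Set directly against Snf5-/-, the Brg1-/- arrays differed in 1 member. Psmb6 was higher by 0.33 ± 0.08 (adjusted p = 0.049), or 1 of 34 members, where 2.14% of all genes were higher, and the deposited difference was 0.08 (adjusted p = 0.81). No member was lower, where 2.30% of all genes were. On the deposited scale none passed in either direction, where 0.369% of all genes were higher and 3.93% lower. The call of Psmb6 was lost without any single array in turn (adjusted p up to 0.102). The median difference of the members was 0.14 after normalization, against -0.01 for all genes, and -0.13 on the deposited scale, against -0.20 for all genes.

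Of the 64 member probe sets, 52 passed the filter, and 13 genes had more than 1 of these. Fitted one by one among 13370 probe sets, 2 rose in Snf5-/-, where 8.80% of all probe sets rose, and 4 fell, where 8.03% fell. The fallen ones were those of Psmd8 and Psmd5 and the second probe sets of Psmc4 and Psmd6. In Brg1-/-, 9 rose, where 12.8% rose, and 2 fell, where 12.2% fell, the additional rise being that of the second Psma6 probe set.

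Probe sets of a gene disagreed for Psmc4, an ATPase. The normalized intensity of its second probe set (1416290_a_at) was 1837, 1586 and 1590 in the wild type arrays, 893, 907 and 1109 among the Snf5-/- arrays and 1468, 1310, 1510 and 1291 among the Brg1-/- arrays. All Snf5-/- arrays were below all others. This probe set fell by 0.79 on the log2 scale in Snf5-/- (adjusted p = 0.0012), and its change in Brg1-/- was -0.26 ± 0.11 (adjusted p = 0.11). It was higher in Brg1-/- than in Snf5-/- by 0.53 ± 0.11 (adjusted p = 0.027), while the deposited difference was 0.31 (adjusted p = 0.40). The representative probe set (1416291_at) changed by -0.04 in Snf5-/- (adjusted p = 0.82) and 0.12 in Brg1-/-. Likewise the second probe set of Psmd6 (1423696_a_at) changed by -0.57 ± 0.15 in Snf5-/- (adjusted p = 0.021), against -0.12 for the representative (adjusted p = 0.51). A dim probe set of Psmd4 (1451725_a_at), the gene of a ubiquitin receptor in the base, read 123, 172 and 208 in the wild type arrays, 313, 187 and 106 among the Snf5-/- arrays and 94.6, 185, 96.4 and 43.5 among the Brg1-/- arrays after normalization. Its groups overlapped. It changed by -0.83 ± 0.46 in Brg1-/- (adjusted p = 0.21), against 0.27 ± 0.11 for the representative (adjusted p = 0.11), a wider gap than that of Psmc4, though neither passed.

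The constitutive cutting subunits were set against their immune counterparts as log2 ratios of deposited intensity within an array, since a brightness factor of the array cancels in a ratio. The height of such a ratio has no meaning between probe sets, and only its difference between groups is read. The ratio of Psmb8 to Psmb5 was -6.07, -5.45 and -5.30 in the wild type arrays, -4.88, -3.65 and -3.90 among the Snf5-/- arrays and -5.46, -4.65, -4.69 and -4.27 among the Brg1-/- arrays. All Snf5-/- arrays were above wild type, while Brg1-/- overlapped it. The difference from wild type was 1.46 in Snf5-/- (exact permutation test over arrays, two-sided, p = 0.1, adjusted over 9 ratios p = 0.147) and 0.84 in Brg1-/- (exact p = 0.114, adjusted p = 0.147).

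The ratio of Psmb9 to Psmb6 was -5.51, -5.67 and -6.28 in the wild type arrays, -5.29, -3.80 and -3.06 among the Snf5-/- arrays and -5.08, -4.57, -4.06 and -4.55 among the Brg1-/- arrays. Psmb9 was at or below background in 2 arrays, with 30 against a background of 57.4 in wild type replicate 3 and 52.2 against 56.6 in Snf5-/- replicate 1, so the ratios of these arrays have no firm value. Every other mutant array was above the other wild type arrays. The differences were 1.77 (exact p = 0.1, adjusted p = 0.147) and 1.26 (exact p = 0.0286, adjusted p = 0.129). For Psmb10 to Psmb7 the ratio was -5.03, -4.57 and -5.09 in the wild type arrays, -3.97, -3.06 and -3.12 among the Snf5-/- arrays and -4.66, -4.36, -4.53 and -4.30 among the Brg1-/- arrays. The Snf5-/- arrays stood above all the others, and Brg1-/- overlapped wild type. The differences were 1.51 (exact p = 0.1, adjusted p = 0.147) and 0.44 (exact p = 0.0857, adjusted p = 0.147), and Brg1-/- was below Snf5-/- by -1.08 (exact p = 0.0286, adjusted p = 0.129). For the other ratios Brg1-/- differed from Snf5-/- by -0.63 (Psmb8 to Psmb5, exact p = 0.229) and -0.52 (Psmb9 to Psmb6, exact p = 0.4). No ratio passed after adjustment; 3 against 3 arrays allow no p below 0.1, and 3 against 4 none below 0.0286.

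**Figure D5:**
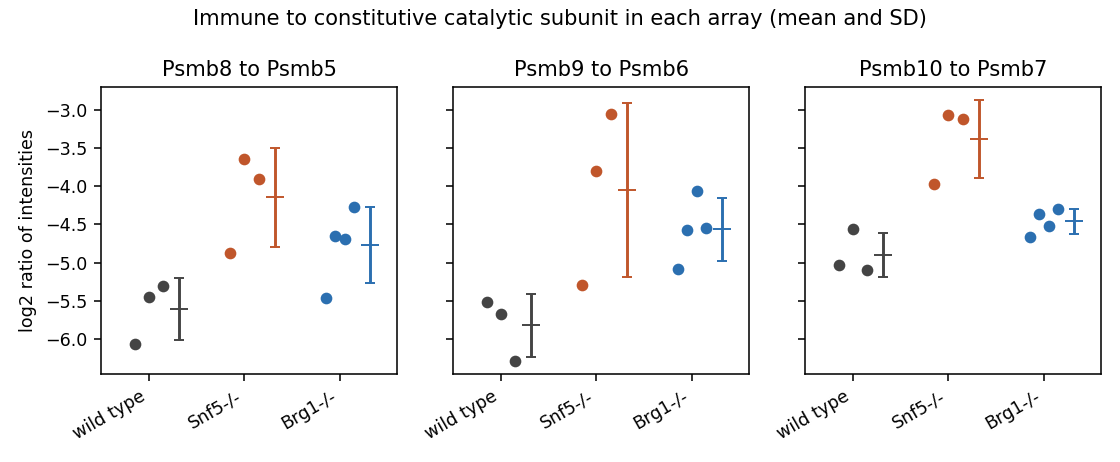
Log2 ratio of the deposited intensity of each immune cutting subunit to that of its constitutive counterpart in every array (dots), with mean and SD by group. The Snf5-/- dots lie above wild type in each panel, and for Psmb10 to Psmb7 also above all Brg1-/- dots. For Psmb9 a wild type and a Snf5-/- dot, but no Brg1-/- dot, come from arrays where it was not above background.

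The immune genes were also read by themselves. Of 4 tested genes of the immune proteasome, all 4 rose in Snf5-/- after normalization, where 10.6% of all genes rose. On the deposited scale 3 rose, without Psmb9, where 3.16% of all genes rose. The normalized changes were 1.40 ± 0.21 for Psmb10, 1.40 ± 0.32 for Psmb8 and 1.72 ± 0.52 for Psmb9. Psme1, an activator that interferon induces, changed by 1.04 ± 0.12. The Psmb9 value includes the 2 arrays at or below background, and its normalized Snf5-/- arrays overlapped wild type. In Brg1-/- 3 of 4 rose after normalization (Psmb8 by 0.89, Psmb9 by 1.44 and Psme1 by 0.65), where 14.9% of all genes rose, and none on the deposited scale, where 3.43% did. Psmb8 and Psmb9 were dim in wild type, at 91 to 94.9 and 30 to 70.6 in deposited intensity, below array medians of 190.65 to 233.65. Both may have passed the filter only through mutant arrays where they were higher. The counts of immune genes set beside the share of all genes are therefore no test. Leukocytes use the immune subunits constitutively. Of 12 leukocyte markers, 10 were above background in every array of each group, and none was at or below it in all arrays of a group. Ptprc and C1qa were at or below background in 3 and 5 of the 10 arrays. Their summed deposited intensity was 3744 to 6468 in wild type, 2821 to 10578 in Snf5-/- (highest in replicate 2) and 2259 to 4931 in Brg1-/-. Their part in the result was not tested; Psmb10 was highest in Snf5-/- replicate 3, at 810, and read 782 in replicate 2 and 433 in replicate 1.

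Other genes of the pathway were taken from lists. Of 10 regulators of proteasome genes, Maff, a small Maf partner of Nfe2l1 and Nfe2l2, fell in both mutants and on both scales. Of all genes, 7.47% fell in Snf5-/- and 12.9% in Brg1-/- after normalization (16.1% and 44.1% on the deposited scale). Nfyc, a subunit of NF-Y, rose in Brg1-/- after normalization, where 14.9% of all genes rose. Deposited intensity of Maff was 1042, 871 and 747 in the wild type arrays, 220, 272 and 226 among the Snf5-/- arrays and 185, 243, 325 and 191 among the Brg1-/- arrays. The groups of mutants lay far below wild type and overlapped each other. Maff changed by -1.58 ± 0.20 in Snf5-/- (adjusted p = 0.00026) and -1.48 ± 0.19 in Brg1-/- (adjusted p = 0.00015) after normalization. The other small Mafs in the list passed in neither mutant after normalization. Mafg changed by -0.17 in Snf5-/- and -0.04 in Brg1-/-, and Mafk by -0.05 and 0.13. Nfyc changed by 0.49 ± 0.11 in Brg1-/- (adjusted p = 0.0080), with a deposited change of -0.03. Nfe2l1 itself changed by -0.25 ± 0.14 (adjusted p = 0.24) and -0.26 ± 0.13 (adjusted p = 0.16), and passed only on the deposited scale, where it fell in both mutants.

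Among 16 factors that associate with the particle, Zfand2a, known as a stress-induced partner of the regulatory particle, fell in both mutants and on both scales. Of all genes, 7.47% fell in Snf5-/- and 12.9% in Brg1-/- after normalization (16.1% and 44.1% on the deposited scale). For Zfand2a the values were as follows. It read 1519, 1124 and 956 in the wild type arrays, 466, 546 and 595 among the Snf5-/- arrays and 411, 364, 412 and 434 among the Brg1-/- arrays in deposited intensity, with no overlap of either mutant with wild type. The normalized change was -0.82 ± 0.11 (adjusted p = 0.00053) and -1.04 ± 0.11 (adjusted p = 3.59e-05). Ube3a, a ubiquitin ligase, rose in Snf5-/- after normalization by 0.60 ± 0.17 (adjusted p = 0.032), where 10.6% of all genes rose. Ubqln2, a ubiquitin shuttle, was lower in Brg1-/- than in Snf5-/- by -0.70 ± 0.13 (adjusted p = 0.012), where 2.3% of all genes were lower. The other 13 did not pass after normalization in any comparison.

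A further list held 4 genes of activators, their partners and an inhibitor, outside the immune list. Of these, Psmf1, which encodes the inhibitor PI31, fell by 0.43 on the log2 scale in Snf5-/- (adjusted p = 0.024). It fell by 0.36 in Brg1-/- (adjusted p = 0.028), and also fell on the deposited scale in both. Psme4, encoding the activator PA200, fell by 0.33 in Brg1-/- (adjusted p = 0.032), and Psme3ip1 rose by 0.42 in Snf5-/- after normalization (adjusted p = 0.038). Of all genes, 7.47% fell and 10.6% rose in Snf5-/- and 12.9% fell in Brg1-/- after normalization. Of 5 assembly chaperones outside the members, only Psmg4 passed after normalization, by 0.52 ± 0.17 in Snf5-/- (adjusted p = 0.049), where 10.6% of all genes rose. Pomp, the maturation factor of the core, read -0.32 ± 0.10 in Snf5-/- (adjusted p = 0.052) and -0.15 ± 0.10 in Brg1-/-, and fell in both mutants on the deposited scale.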

How the data were processed

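Expression was measured on 10 Affymetrix arrays of 3 genotypes. The authors deposited linear intensity per probe set, made with MAS5 per the submitters' processing notes; the sources used here name neither its version nor its scaling target. Probe sets were named with the platform annotation, updated to RefSeq symbols (GRCm38.p6). Because array medians differed by over 0.5 on the log2 scale, log2 values were quantile-normalized (limma 3.58.1, R 4.3.3), with deposited log2 values beside them and no pseudocount. The probe set of highest mean stood for a gene. Genes at or above the 40th percentile of the array in at least 3 arrays were kept (8398). Group means were fitted with lmFit and eBayes with an intensity trend (7 residual degrees of freedom), and p-values were adjusted by Benjamini-Hochberg over all genes within each of 3 comparisons, at 0.05. Background was the highest of 27 Bacillus subtilis controls per array. Ratios used two-sided exact permutation tests. No 2 arrays were identical among 45 pairs.

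Genes with values per array were the 3 cutting subunits, the 3 largest rises and falls past the threshold, and members that passed in opposite directions on the 2 scales; up to 3 genes of smallest adjusted p were named from each related list. Nfe2l1, Pomp, Psmd14, Psmd3 and the second probe sets were singled out after their values were seen. The members and lists were chosen with earlier results of these data known. A list of 6 ubiquitin genes was not analysed here.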

Additional observations from a re-analysis of the deposited data

Results flagged for a closer look

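A single array stood apart from its group for 2 of the 34 members, by a Dixon test among the 4 Brg1-/- arrays (gap to the nearest array over the whole range, read at the 95% critical value). For Psma3, an alpha subunit, Brg1-/- replicate 2 was high, with a normalized intensity of 4150 (4149.73) against 3841 to 3874 in the other arrays, a ratio of 0.888. For Psmb3, a beta subunit, Brg1-/- replicate 4 was low, at 2468 (2467.59) against 2869 to 2949, a ratio of 0.846. Chance gives such a result in about 1 in 20 groups. Neither gene passed the test against wild type after normalization.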

How the results depend on the processing

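The falls of Psmd8 and Psmd5 passed the threshold in both mutants under all 21 alternatives run, with adjusted p up to 0.0043 for Psmd8 and 0.0137 for Psmd5. Each of these genes has 1 probe set, so the settings on probe sets and on filters could not alter its log2 change. Whether another probe set would show these falls could not be tested. The counts of other members depended on scaling and on single arrays. Members that rose in Snf5-/- numbered 2, against 0 on the deposited scale and with the mean of a gene's probe sets, and 1 with array-median centring, with no intensity trend and with only the groups compared (1 to 2 leaving out an array). Those that fell in Snf5-/- numbered 2, against 9 on the deposited scale, 4 with a 60th percentile filter and 6 with the mean of probe sets (2 to 4, with 4 without Brg1-/- replicate 4). Those that rose in Brg1-/- numbered 8, against 0 deposited, 2 with array-median centring, 5 with the mean of probe sets and 4 when centred on the 34 members, an alternative chosen after seeing the data (5 to 8 leaving out an array). Those that fell in Brg1-/- numbered 2, against 24 deposited and 5 with array-median centring (2 to 3). The member higher in Brg1-/- than in Snf5-/- numbered 1, against 0 on the deposited scale, with array-median centring, with no filter, with every probe set on its own, with no trend, with only the groups compared and when centred on the members (0 to 1). None was lower, except 1 (Psma3) when centred on the members (0 to 0 leaving out an array). Other settings, such as a pseudocount of 16, moved no count by over 1.5 times. No ratio changed sign in 78 alternative settings; the number of arrays leaves a pass nearly out of reach, so the lack of one says nothing of stability.

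Members with a change above 0 went from 12 to 1 of 34 in Snf5-/-, from 21 to 1 in Brg1-/- and from 27 to 8 between the mutants on the deposited scale. Over all 8398 genes tested the same counts went from 4401 to 2087, from 4318 to 1299 and from 4043 to 1933 on that scale. Among the members recomputed under every setting, those that turned there were, in Snf5-/-, Psmb4 (-0.072), Psmb5 (-0.31) and Psmb6 (-0.30), and in Brg1-/- Psma4 (-0.43), Psma6 (-0.078), Psmb2 (-0.23), Psmb4 (-0.22), Psmb5 (-0.35), Psmb6 (-0.22), Psmb7 (-0.45) and Psmd3 (-0.23). Between the mutants, where only Psmb5, Psmb6 and Psmb7 were recomputed, these were Psmb5 (-0.046) and Psmb7 (-0.079). With array-median centring Psmb5 (-0.047) and Psmb6 (-0.042) turned in Snf5-/- and Psma4 (-0.022) and Psmb7 (-0.043) in Brg1-/-. In Snf5-/- Psma6 turned with the mean of probe sets (-0.091) and Psmb7 when centred on the members (0.063). Leaving out an array in Snf5-/- gave -0.0088 to 0.16 for Psmb5 (below 0 without Snf5-/- replicate 3) and -0.049 to 0.011 for Psmb7 (above 0 without wild type or Snf5-/- replicate 1). The cause was not tested.

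Replicate numbers did not pair the arrays: deviations of same-numbered arrays correlated at -0.0738 to 0.105 after normalization. On the deposited scale they correlated at -0.083 to 0.112. With the replicate block the counts were 2 and 2 in Snf5-/-, 7 and 2 in Brg1-/-, and 1 and 0 between the mutants. Signal over background limited none of the 34 tested members, and the small number of arrays limits all changes.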
